A study of Mus musculus with 40 samples.

Results

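The 8 genes that had been named as enriched in the amygdala, Nr2f2, Lypd1, Glra3, Slc30a3, Rspo2, Lmo3, Cyp26b1 and AW551984, were followed over 5 brain regions of mice that differ at position 92 of the type 2 deiodinase. They were picked from their levels between regions, by gene symbol, and are 8 of 19505 genes on the array, each measured by 1 row. All 8 passed the filter on dim genes and are among 14978 genes tested. Type 2 deiodinase, encoded by Dio2, makes the active thyroid hormone T3 from thyroxine, and the study compared the variants with alanine (Ala) and threonine (Thr) at that position. Total RNA came from amygdala, cerebellum, hippocampus, prefrontal cortex and striatum, with 4 Ala and 4 Thr arrays in each region and 40 arrays in all. Ala mice carried the genotype labelled Ala92D2HY and Thr mice the one labelled Thr92D2HY, both on a background given as C56BL/6. All mice were 8 to 10 weeks old, were housed at 22 °C and ate chow. No label says which animal an array came from, and the p-values therefore cover array-to-array spread alone, which could be technical.

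The amygdala is a group of nuclei in the temporal part of the forebrain that serves fear, reward and social behaviour. Its basolateral nuclei hold glutamatergic neurons like those of cortex, while its central and medial nuclei are rich in GABA neurons and lie next to the striatum and close to the hypothalamus. Genes that mark its neurons include transcription regulators that pattern the ventral forebrain, secreted signals and proteins that tune receptors at the synapse.

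Levels are log2 signals after RMA, in which a difference of 1 is a 2-fold change, and levels of different genes cannot be set against each other. The medians of the negative control rows ran from 5.73 to 6.35 across arrays, and a level inside or under that range was near background. The amygdala arrays carried the genes listed for its nuclei unevenly. Of 12 central amygdala markers tested, 5 had their highest regional mean in the amygdala, as did 2 of 10 basolateral markers, 2 of 5 medial and cortical markers and 6 of 8 hypothalamus markers. These counts include genes at background. The 2 medial and cortical markers, Otp and Ucn3, were at 4.77 and 4.42 in the amygdala, and the central marker Gabre was at 4.94. The mean of the 8 hypothalamus markers was 5.59 there. Replicate 1 of the Ala amygdala had a mean level of 10 striatum markers 2.15 above the mean of the 8 amygdala arrays, where the other 7 lay between -0.67 and 0.23. Replicate 2 of the Ala amygdala was 1.79 above that mean for 11 choroid plexus markers and 1.18 above it for 9 hippocampus markers. Genotype results of the 8 genes in the amygdala are therefore given with and without these arrays. Leaving both out moved the amygdala excess of the 8 genes over the other regions little, for example to 5.21 for Nr2f2, a setting added once the data had been seen. In dissected tissue, fewer cells of a type and less RNA per cell cannot be told apart.

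Because the members were chosen on their regional levels, those levels are described without a test. Of the 8 genes, 7 had their highest mean in the amygdala, and Rspo2 had it in the hippocampus. On 3 genes, Nr2f2, Lypd1 and Glra3, every amygdala array lay above every array of the other regions. On AW551984 7 of the 8 amygdala arrays did so, on Slc30a3 6, on Lmo3 3, on Cyp26b1 2 and on Rspo2 none.

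Among the transcription regulators, Nr2f2 encodes COUP-TFII, an orphan nuclear receptor that directs the development of ventral and caudal forebrain. It lies on chromosome 7 (GRCm38.p6, 70351946 to 70366746). Its level in the amygdala was 11.30, 14.48, 14.01 and 13.75 in the Ala arrays and 13.46, 15.07, 14.83 and 14.53 in the Thr arrays. The hippocampus followed at 10.06 ± 0.45 (SD, n = 8), the cerebellum at 9.47 ± 0.39, the prefrontal cortex at 8.81 ± 0.74 and the striatum at 7.91 ± 0.78, and arrays of each neighbouring pair in that order overlapped. The lowest amygdala array, Ala replicate 1, was still above the highest array elsewhere, at 10.72 in the hippocampus. The amygdala exceeded the mean of the other regions by 4.86 on the log2 scale, the largest such difference among the genes tested.

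Lmo3 encodes a LIM-only protein, a cofactor that joins transcription factors without binding DNA itself, and lies on chromosome 6 (138362918 to 138582206). Its pattern was that of a forebrain gene. The 8 amygdala arrays ran from 15.21 over a median of 17.18 to 17.59, with a mean of 16.99 ± 0.79. Striatum, hippocampus and prefrontal cortex had means of 16.47 ± 0.29, 16.33 ± 0.31 and 16.19 ± 0.64, while the cerebellum stood apart at 7.94 ± 1.08. Arrays of the 4 forebrain regions overlapped throughout. The amygdala minus the mean of the other regions was 2.76, and 0.67 when the cerebellum was left out of that mean.

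Of the proteins at the membrane and synapse, Lypd1 is a small lipid-anchored protein of the Ly6 family, which resembles snake toxins and binds nicotinic acetylcholine receptors. It lies on chromosome 1 (125867622 to 125913175). The amygdala arrays ran from 13.85 to 15.84, with a mean of 15.01 ± 0.63. The hippocampus at 11.74 ± 0.19 and the striatum at 11.56 ± 0.26 overlapped each other, and the prefrontal cortex was at 10.10 ± 1.07 and the cerebellum at 8.18 ± 0.37. The lowest amygdala array was above the highest hippocampal array, at 12.03.

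Glra3 encodes the alpha 3 subunit of the glycine receptor, an inhibitory chloride channel, and lies on chromosome 8 (55940418 to 56130070). In the amygdala its arrays ran from 9.56 to 12.20, with a mean of 11.04 ± 0.87. The prefrontal cortex was next at 7.93 ± 0.92 and the hippocampus at 6.84 ± 0.68. The striatum at 5.64 ± 0.53 and the cerebellum at 4.99 ± 0.93 were at or below the range of the negative controls.

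Slc30a3 encodes ZnT3, which loads zinc into the synaptic vesicles of glutamatergic neurons, and lies on chromosome 5 (31086106 to 31108244). The amygdala mean of 13.51 ± 0.85 lay close to those of prefrontal cortex, 12.44 ± 0.60, and hippocampus, 12.16 ± 0.31. Both regions overlapped the amygdala, because Ala replicates 1 and 2 were at 12.47 and 11.96 while the other 6 amygdala arrays were at 13.48 or above. The striatum at 7.51 ± 1.25 and the cerebellum at 6.40 ± 0.43 were far lower, so this gene separated cortex-like regions from the rest more than it singled out the amygdala.

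Rspo2, on chromosome 15 (43020788 to 43171594), encodes R-spondin 2, a secreted protein that strengthens Wnt signalling. It did not follow its label. The amygdala had a mean of 10.57 ± 0.74, below the 11.16 ± 0.80 of the hippocampus, with the prefrontal cortex at 9.94 ± 0.48, the striatum at 7.85 ± 0.85 and the cerebellum at 7.49 ± 0.77. Amygdala minus hippocampus was -0.59, with overlapping arrays.

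Cyp26b1, on chromosome 6 (84571414 to 84593908), encodes an enzyme that breaks down retinoic acid. It was dim in every region. Its amygdala mean was 5.81 ± 0.68, with the cerebellum at 5.51 ± 0.38 and the other 3 regions between 4.74 and 5.07. In the hippocampus, prefrontal cortex and striatum all 8 arrays were below every negative control median, and in the amygdala 2 of 8, both Thr, were above all of them. Any regional difference of Cyp26b1 therefore rests on values near the background.

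AW551984, a protein-coding gene on chromosome 9 (39587396 to 39604774) to which the annotation used gives no further name, had amygdala arrays from 7.14 to 11.64 and a mean of 9.62 ± 1.41. The prefrontal cortex was at 6.67 ± 0.47, and hippocampus, cerebellum and striatum were at 6.04 ± 0.40, 5.83 ± 0.73 and 5.76 ± 0.45, in or near the range of the negative controls. Ala replicate 1 alone among the amygdala arrays lay within the range of the prefrontal cortex.

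**Figure D1:**
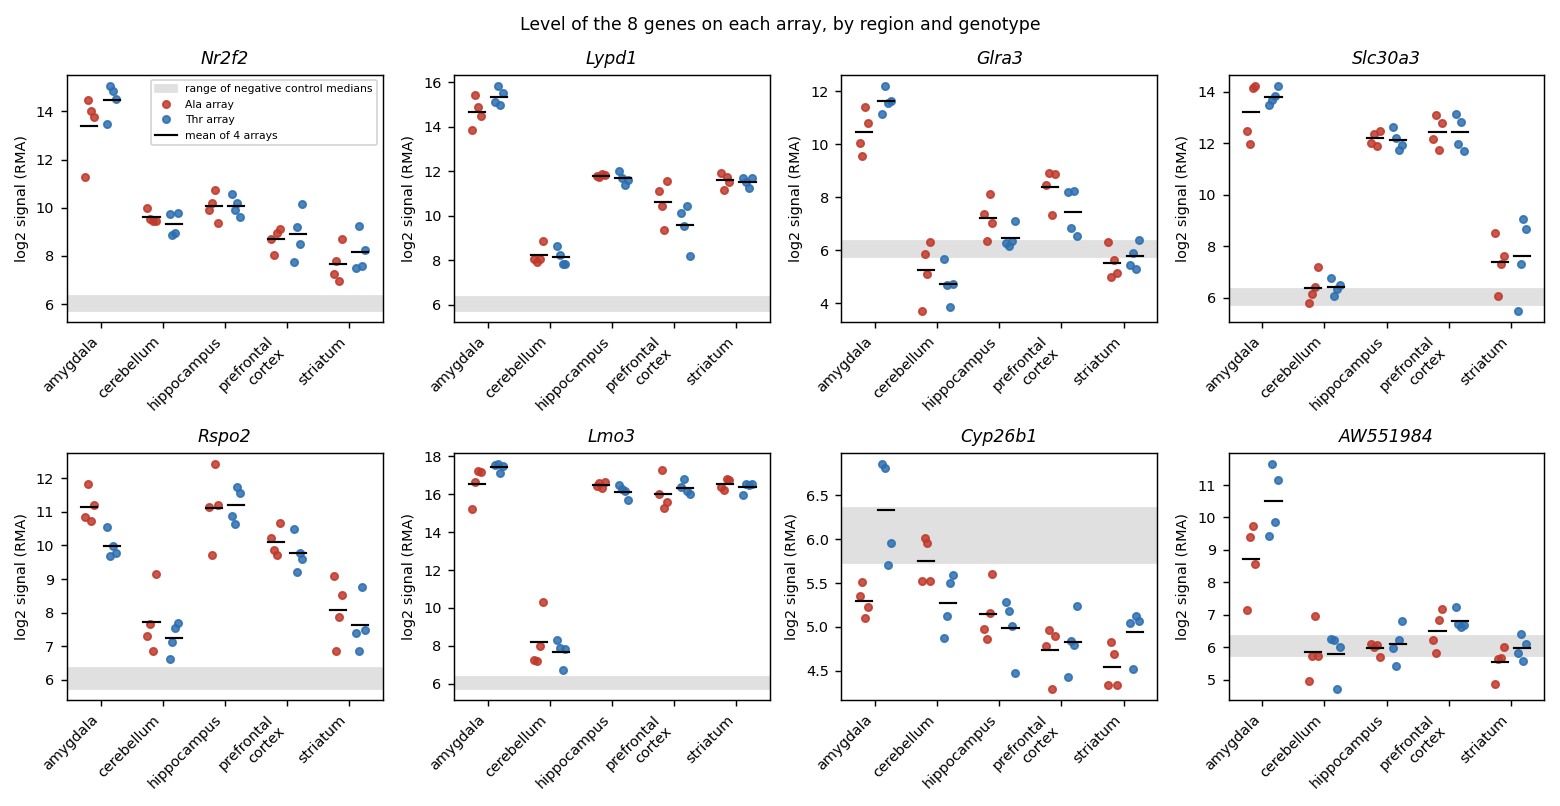
Log2 signal of the 8 genes on each of 40 arrays, by region, with Ala arrays (red) left of Thr arrays (blue), black lines for the mean of 4 arrays and a grey band for the span of negative control medians. Nr2f2, Lypd1 and Glra3 are separated from all other regions, Lmo3 is low in the cerebellum alone, Rspo2 peaks in the hippocampus and Cyp26b1 lies near the band.

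The genes are spread over 7 chromosomes, and the pair on chromosome 6 is 53.8 Mb apart. Promoters of 7 members were matched by symbol in RefSeq (GRCm38.p6), and Rspo2 was not. In each, the 250 bases before the most upstream start of RefSeq's promoter table were searched on both strands, for letters chosen with earlier results known. That start is not always the outer end of the gene in the annotation. The windows of Nr2f2, Glra3 and Slc30a3 lie wholly outside the gene, whereas those of Cyp26b1, Lmo3, Lypd1 and AW551984 have 98, 238, 247 and 250 of their bases inside its annotated span. AGGTCA, the half-site bound by nuclear receptors such as COUP-TFII and the thyroid hormone receptors, was in 0 of the 7 windows and in 12.2% of 15691 promoter windows of genes on the array. GGGTCA was in 1 window, that of Lypd1, and in 11.4% of all. The E-box CAGCTG, a letter set read by basic helix-loop-helix factors, was in 3 windows, those of AW551984, Cyp26b1 and Glra3, and in 11.9% of all. CAGATG was in 1 window (12.4% of all), TATAAA in 2 (12.2%) and TAATTA in 0 (4.36%). None of the searched letters overlaps another where found. The 2 windows that lie outside the gene and hold a match are printed to show where it lies, 5′ to 3′ on the strand of the gene, with the matched letters in capitals. A match is a description of the sequence and not a binding site.
Glra3, chr8:55940168-55940417, plus strand: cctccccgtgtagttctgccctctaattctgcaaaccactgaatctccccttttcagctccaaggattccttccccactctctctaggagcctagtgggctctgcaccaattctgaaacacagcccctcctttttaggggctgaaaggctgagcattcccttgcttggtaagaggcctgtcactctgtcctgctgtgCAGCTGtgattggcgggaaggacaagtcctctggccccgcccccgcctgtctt
Slc30a3, chr5:31108245-31108494, minus strand: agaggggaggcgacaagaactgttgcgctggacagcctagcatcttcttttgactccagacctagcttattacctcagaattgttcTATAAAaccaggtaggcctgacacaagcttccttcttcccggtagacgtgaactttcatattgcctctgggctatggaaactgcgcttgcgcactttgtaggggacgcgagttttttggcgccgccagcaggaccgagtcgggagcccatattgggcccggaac
The capitals of Glra3 are CAGCTG, 53 bases before the start, and those of Slc30a3 are TATAAA, 164 bases before it.

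Relatives of the members were described by the same difference, the amygdala minus the mean of the other regions on the log2 scale. The closest relative of Nr2f2, Nr2f1, was also highest in the amygdala, at 11.29, but exceeded the mean of the other regions by 1.67 only. In the Ly6 family Ly6h exceeded it by 2.77, with an amygdala mean of 11.34, while Lynx1, the best known brake on nicotinic receptors of this family, had a difference of -1.45, with its highest mean in the hippocampus. None of 7 nicotinic receptor subunits tested had its highest mean in the amygdala. Among glycine receptor genes Glra2 had a difference of 2.35, whereas Glrb, which encodes the beta subunit, had one of -0.06. Slc6a5, the neuronal glycine transporter that marks glycinergic neurons, was at 3.42 in the amygdala and 7.03 in the cerebellum. Of 8 zinc transporters tested, Slc30a3 was the only one with its highest mean in the amygdala, and the other 7 had differences between -0.14 and 0.62. Rspo3 had a difference of 1.44, close to the 1.46 of Rspo2. Ldb2, a partner of LIM proteins, had one of 2.24, and Lhx2, a LIM homeobox factor, had one of 2.51 with its highest mean in the hippocampus. Of the other retinoic acid genes Aldh1a2, which makes retinoic acid, had a difference of 0.95 at a dim amygdala level of 5.89, and the receptors Rarb and Rxrg had their highest means in the striatum, at 14.24 and 13.09.

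**Figure D2:**
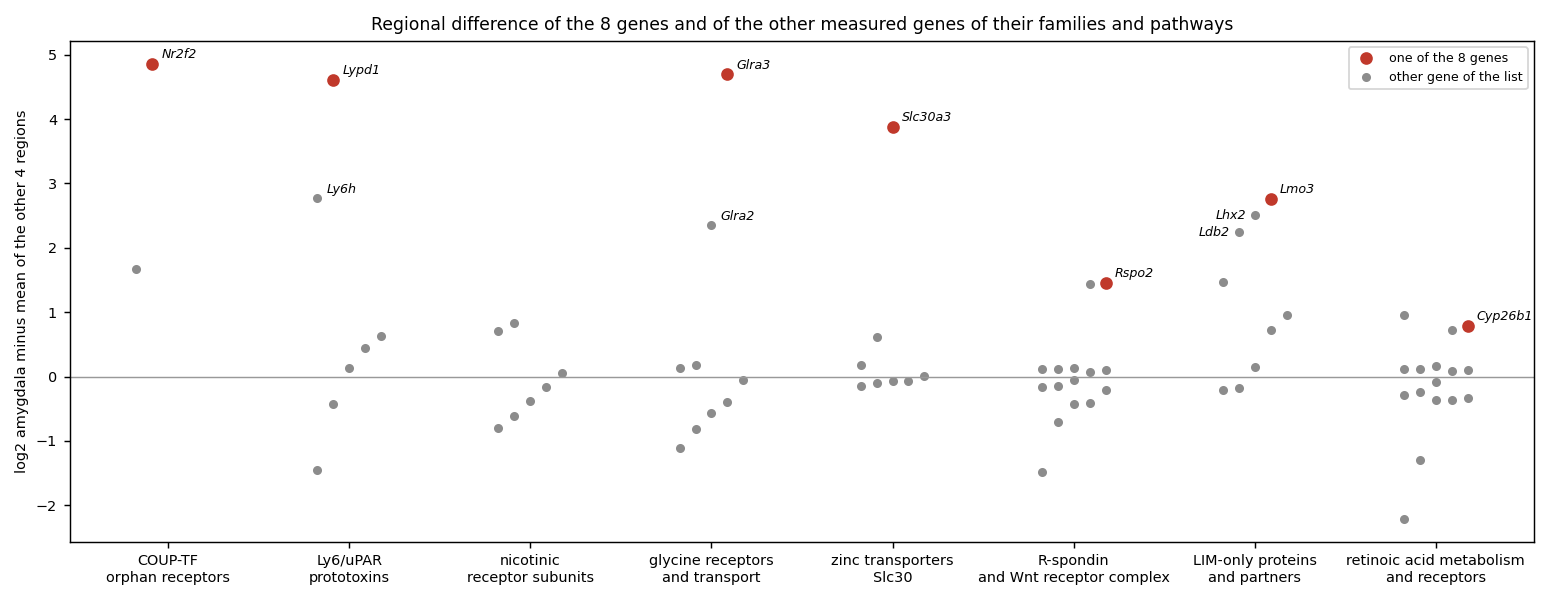
Log2 difference of the amygdala from the mean of the other 4 regions for the 7 members with a family list (red) and for the other measured genes of the related lists (grey). Nr2f2, Lypd1, Glra3 and Slc30a3 stand at 3.88 or above, and Ly6h and Glra2 are the nearest of their relatives at 2.77 and 2.35.

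Across the 40 arrays, Pearson correlations between members were positive in 27 of 28 pairs, with a median of 0.59, and 5 pairs were above 0.8. These values describe shared regional patterns and the points share tissue, so no p is given. Glra3 and AW551984 had 0.86, as did Nr2f2 and AW551984. Rspo2 was most like Slc30a3 among the members (0.85), and the pair Lmo3 and Cyp26b1 was the negative one (-0.21). Outside the members, the genes most like each one over 40 arrays were B130024G19Rik (0.91) and Acvr2a, an activin receptor (0.89), for Nr2f2, and Cntnap5a, a neuronal adhesion gene (0.92), and Gaa, a lysosomal glucosidase (0.91), for Lypd1. Unc5d, a netrin receptor (0.95), and Resp18 (0.94) were most like Glra3, and Cnih3, an AMPA receptor auxiliary subunit, and the synaptotagmin Syt17 (0.97 both) were most like Slc30a3. For Rspo2 they were Fezf2, a cortical transcription factor (0.92), and Nrg3, a neuregulin (0.90), for Lmo3 the NMDA receptor subunit Grin2b and somatostatin, Sst (0.98 both), and for AW551984 the thyrotropin-releasing hormone receptor Trhr (0.90) and Hap1 (0.88). Cyp26b1 had the weakest likeness, with Ndn at 0.70 and Klhdc10 at 0.69.

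The members were named for their levels between regions, but with earlier results of these data known. The genotype contrast within a region may therefore not be free of that choice. It was tested with limma over all 14978 genes. In the amygdala 7 of 8 members had lower means in Ala than in Thr arrays and Rspo2 had a higher one, but 0 of 8 passed an adjusted p under 0.05, which 0.12% of all genes passed. At an unadjusted p under 0.05 there were 6 of 8, against 5.33% of all genes. The median difference of the members was -0.96 on the log2 scale, where that of all genes was 0.01. The members vary together across arrays, so these counts are not 8 separate observations.

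Cyp26b1 came closest to the threshold. It was at 5.35, 5.51, 5.10 and 5.23 in the Ala amygdala and at 6.86, 6.81, 5.70 and 5.96 in the Thr amygdala. The groups did not overlap, as was the case for 3.19% of all genes, and all 4 Ala arrays were below the range of the negative controls. The difference was -1.03 ± 0.24 (SE, adjusted p = 0.0735 with limma), and it was past the threshold without Thr replicate 7 (-1.24, adjusted p = 0.0204). Without Ala replicate 1 it was -1.05 (adjusted p = 0.100), and without Ala replicates 1 and 2 it was -1.17 (adjusted p = 0.172).

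AW551984 had the largest difference. Its level was 7.14, 9.39, 9.75 and 8.56 in the Ala amygdala and 9.42, 11.64, 9.88 and 11.15 in the Thr amygdala, so the groups overlapped. The difference was -1.81 ± 0.44 (adjusted p = 0.120 with limma). It was -1.29 ± 0.43 without Ala replicate 1 (adjusted p = 0.480) and -1.37 without Ala replicates 1 and 2 (adjusted p = 0.473), while leaving out Ala replicate 3 or Thr replicate 5 took it past the threshold, at -2.16 and -2.18 (adjusted p = 0.0313 and 0.0271).

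Rspo2 went the other way. It was at 10.84, 11.81, 10.73 and 11.21 in the Ala amygdala and at 10.56, 9.67, 9.97 and 9.77 in the Thr amygdala, without overlap. The difference was 1.16 ± 0.46 and did not pass (adjusted p = 0.807 with limma). It was 1.26 without Ala replicate 1 and 0.98 without Ala replicates 1 and 2.

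Glra3 was at 10.06, 9.56, 11.39 and 10.80 in the Ala amygdala and at 11.15, 12.20, 11.57 and 11.62 in the Thr amygdala. Only Ala replicate 3 reached into the Thr range. The difference was -1.18 ± 0.47 (adjusted p = 0.807), -1.05 without Ala replicate 1 and -0.54 ± 0.55 without Ala replicates 1 and 2.

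For Nr2f2 the difference of -1.09 ± 0.48 (adjusted p = 0.876) depended on 1 array. Without Ala replicate 1, at 11.30, the Ala mean was 14.08 ± 0.37 (SD, n = 3) against 14.47 ± 0.71 in Thr (n = 4), and the difference was -0.39 ± 0.43 (adjusted p = 0.969). It was -0.59 without Ala replicates 1 and 2.

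Lypd1 was at 13.85, 15.41, 14.89 and 14.47 in the Ala amygdala and at 15.11, 15.84, 14.96 and 15.51 in the Thr amygdala, a difference of -0.70 ± 0.35 (adjusted p = 0.936). Lmo3 was at 15.21, 16.65, 17.21 and 17.15 in the Ala amygdala and at 17.56, 17.59, 17.10 and 17.49 in the Thr amygdala, a difference of -0.88 ± 0.43 (adjusted p = 0.923). Ala and Thr arrays overlapped for both genes. Without Ala replicate 1 the differences were -0.43 for each gene, and without Ala replicates 1 and 2 they were -0.67 for Lypd1 and -0.26 for Lmo3. Slc30a3 was at 12.47, 11.96, 14.16 and 14.23 in the Ala amygdala and at 13.48, 13.67, 13.85 and 14.24 in the Thr amygdala, a difference of -0.60 ± 0.51 (adjusted p = 1.00). Its 2 low values were Ala replicates 1 and 2, and without both the difference turned to 0.38 ± 0.57 (adjusted p = 0.935).

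**Figure D3:**
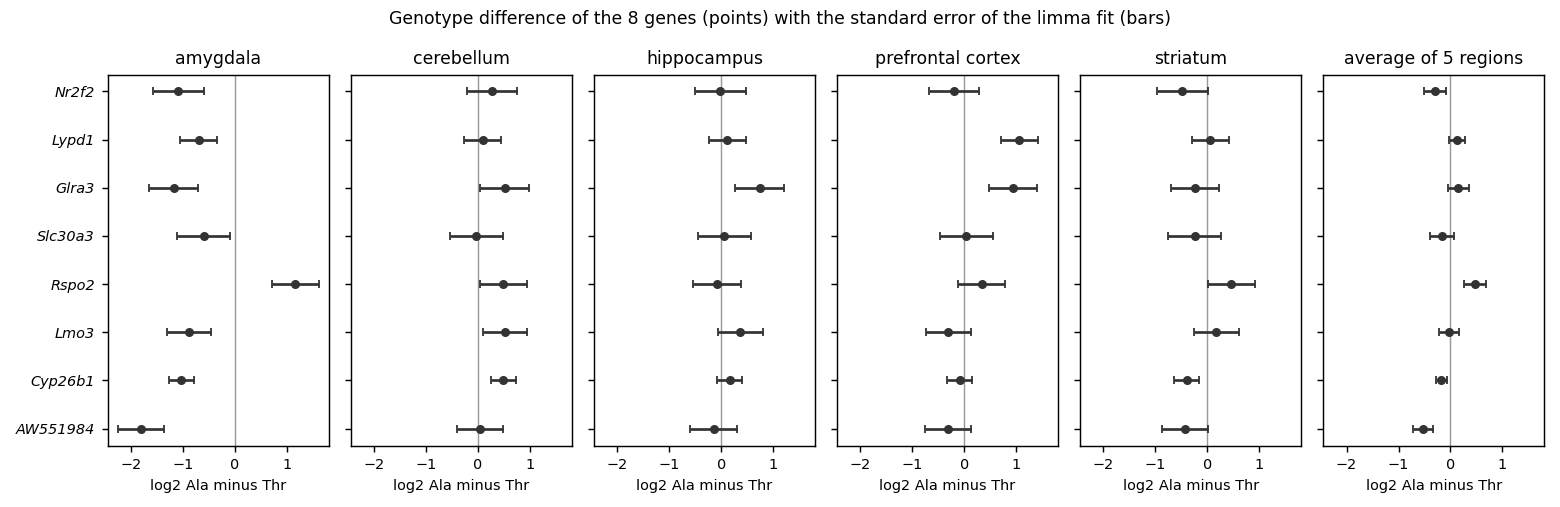
Log2 difference between Ala and Thr arrays for each of the 8 genes (points) with their standard errors from limma (bars), in each region and averaged. In the amygdala 7 points lie below 0 and Rspo2 lies at 1.16, and no difference in any column passed the threshold.

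The low values were gathered on few arrays. Ala replicate 1 was the lowest of the 8 amygdala arrays for 4 members, Nr2f2, Lypd1, Lmo3 and AW551984, and Ala replicate 2 was the lowest for 2, Glra3 and Slc30a3. Thr replicate 6 was the highest for 5. Without Ala replicate 1 there were 4 members at an unadjusted p under 0.05, with a median difference of -0.43, and without Ala replicates 1 and 2 there were 2, with a median of -0.56.

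Some marker lists for parts of the amygdala and its neighbours leaned in sign between genotypes or stood out on these arrays. Of 10 basolateral markers 7 had positive Ala minus Thr differences in the amygdala, with a median of 0.26. Of 12 central markers 11 had negative ones (median -0.26), as did 4 of 5 medial and cortical markers (median -0.15). Of all genes 48.94% were negative. Lists of other tissue or cells also leaned, with 9 of 10 myelin markers negative and 9 of 10 striatum markers positive (medians -0.23 and 0.12). Of 9 thalamus markers 7 were negative, while 9 piriform and claustral markers were split 5 positive to 4 negative. The basolateral list leaned the same way in other regions. Of its 10 genes, 7 were positive in the cerebellum (median 0.13), 7 in the hippocampus (0.21) and 8 in the prefrontal cortex (0.22). In the striatum 5 were positive and 5 negative. Among the 3 lists of amygdala nuclei 0 genes passed in the amygdala, against 0.12% of all genes. Grp, a peptide gene of basolateral neurons, had the smallest p there, at 1.69 ± 0.45 (adjusted p = 0.201 with limma). Grp levels of 7.29, 10.09, 7.95 and 7.47 in the Ala amygdala were all above the 6.06, 6.49, 6.96 and 6.52 of the Thr amygdala. Such a lack of overlap held for 3.19% of all genes. The 10.09 was Ala replicate 2, and Grp had its highest mean in the hippocampus (7.64, against 7.35 in the amygdala). No fit without that array is given for Grp. Ecel1, of the medial and cortical list, went the other way, at -1.69 ± 0.48 (adjusted p = 0.292 with limma). The mean level of the basolateral list ran from 9.33 to 10.59 in Ala and from 9.02 to 9.74 in Thr arrays. For the central list it ran from 8.62 to 10.06 in Ala and from 8.88 to 9.60 in Thr arrays. The highest were Ala replicate 2 for the basolateral and Ala replicate 1 for the central list. The mean level of the medial and cortical list ran from 7.55 to 8.25 in Ala and from 7.83 to 8.78 in Thr arrays. That of 8 hypothalamus markers ran from 5.00 to 5.55 in Ala and from 5.50 to 6.05 in Thr, in or below the range of the negative controls. Of these, the peptide genes Avp and Cartpt were lower in the Ala than in the Thr amygdala, with differences of -1.54 ± 0.30 and -1.51 ± 0.27 (adjusted p = 0.0156 and 0.00433 with limma). In the amygdala 0.12% of all genes passed. The call of Avp was lost when Ala replicate 2, Ala replicate 3, Thr replicate 6 or Thr replicate 7 was left out (adjusted p = 0.0661, 0.0861, 0.241 and 0.137), while its difference was -1.51, -1.38, -1.35 and -1.17. Without Ala replicates 1 and 2 together neither passed, but the differences were about as large, at -1.69 for Avp (adjusted p = 0.0775) and -1.47 for Cartpt (adjusted p = 0.0869). The mean level of the striatum list ran from 6.91 to 9.73 in Ala and from 7.09 to 7.81 in Thr, and that of 10 myelin markers from 8.37 to 10.91 in Ala and from 9.06 to 11.10 in Thr. Their part in the differences of the members was not tested.

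**Figure D4:**
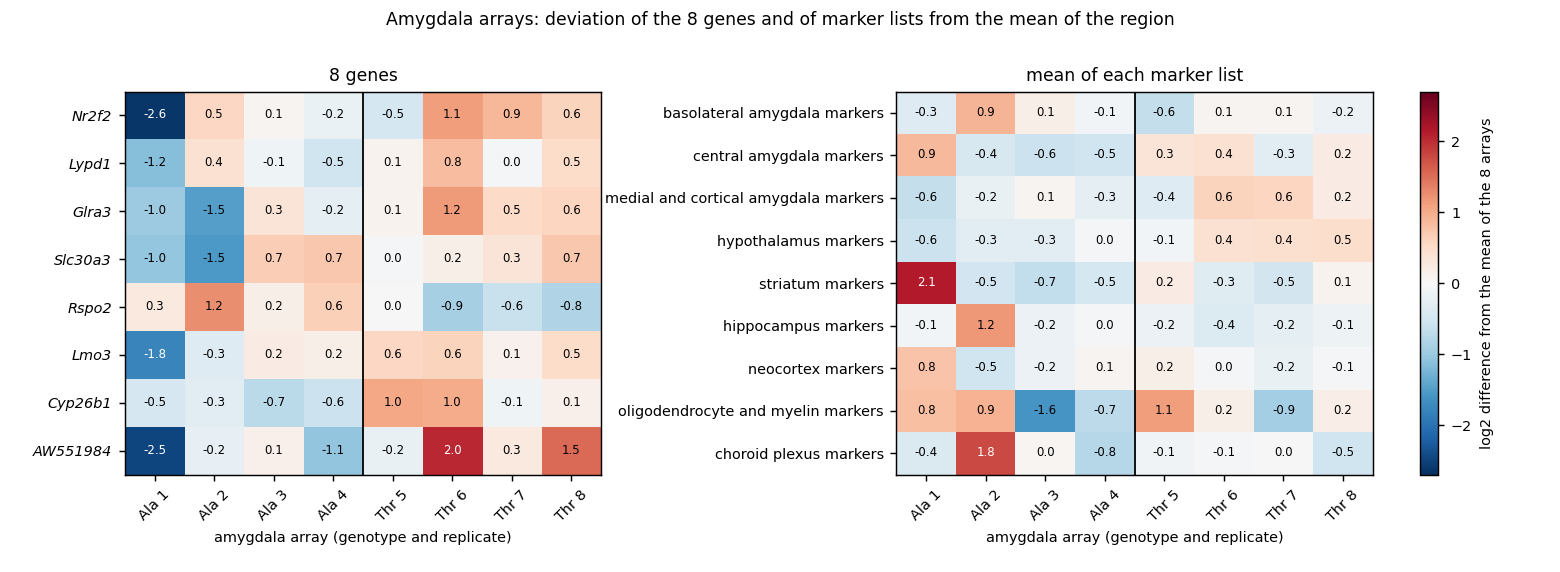
Deviation of each amygdala array from the mean of the 8, in log2 units, for the members (left) and for the mean of marker lists (right), with Ala arrays left of Thr arrays. Ala 1 is low for Nr2f2, Lmo3 and AW551984 and 2.15 above the mean for striatum markers, and Rspo2 is above the mean in the 4 Ala arrays and below it in the 4 Thr arrays.

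In the other regions no member passed either, against 0% of all genes in the cerebellum, hippocampus and prefrontal cortex and 0.0801% in the striatum. In all, 2 members had an unadjusted p under 0.05 in the prefrontal cortex, where 2.33% of genes did, and none did in the cerebellum, hippocampus and striatum (1.94%, 3.14% and 6.14% of genes). Lypd1 was at 11.13, 10.42, 9.37 and 11.57 in the Ala prefrontal cortex and at 10.12, 9.55, 10.43 and 8.18 in the Thr prefrontal cortex. This difference of 1.05 ± 0.35 had the sign opposite to the amygdala (adjusted p = 1.00 with limma), and the groups overlapped. Its SE is pooled over all groups, while the SD of Lypd1 within genotype was 0.98 in the prefrontal cortex and 0.19 in the hippocampus. Glra3 was also higher in the Ala than in the Thr prefrontal cortex, by 0.94 ± 0.47 (adjusted p = 1.00). No member had groups without overlap in these 4 regions, where 2.66% of all genes did in the cerebellum, 2.73% in the hippocampus, 1.66% in the prefrontal cortex and 1.98% in the striatum. Members' differences ran from -0.04 to 0.52 in the cerebellum, from -0.15 to 0.74 in the hippocampus and from -0.48 to 0.46 in the striatum. In the cerebellum 7 of 8 were positive, with a median of 0.37 against 0.0045 for all genes. A sign shared by 7 of 8 members was thus seen in the cerebellum too, where it depended in part on 1 array. Without Ala cerebellum replicate 12 the cerebellar differences of Lypd1 and Lmo3 turned to -0.12 and -0.18. The cerebellar means of Glra3, Cyp26b1 and AW551984, at 4.99, 5.51 and 5.83, were in or below the range of the negative controls. In the hippocampus 5 of 8 were positive, in the prefrontal cortex 4 and in the striatum 3.

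Averaged over the 5 regions, 0 of 8 members passed, against 0.02% of all genes. The average of AW551984 was -0.53 ± 0.20 (adjusted p = 0.849 with limma) and that of Rspo2 0.47 ± 0.20 (adjusted p = 0.864), and both had an unadjusted p under 0.05, as did 5.37% of all genes. Rspo2 was higher in Ala arrays in 4 of 5 regions, and Nr2f2, with an average of -0.30 ± 0.22, was lower in 4 of 5. For Nr2f2 these include the hippocampus, at -0.01. Likewise AW551984 was lower in Ala arrays in all regions but the cerebellum, and Lypd1 was higher in all but the amygdala. Apart from AW551984, Rspo2 and Nr2f2, the members had averages between -0.17 and 0.15.

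Whether the genotype difference varied between regions was tested with an F-test in the same limma fit. None of the 8 members passed, against 0.0401% of all genes, and 4 had an unadjusted p under 0.05, against 2.68% of all genes. These were Cyp26b1 (F = 5.84, adjusted p = 0.50), Glra3 (F = 3.51), Lypd1 (F = 3.07) and AW551984 (F = 2.76), each with adjusted p = 1.00 apart from the first. Opposite signs in amygdala and prefrontal cortex are therefore values without a call.

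Of 66 other genes in the 8 related families and pathways, 1 passed in a genotype contrast. It passed in the amygdala, where 0.12% of all genes did. Glra1, another glycine receptor subunit, was lower in the Ala amygdala, at 5.48, 3.89, 5.91 and 5.34, against 5.97, 8.29, 7.09 and 7.49 in the Thr amygdala. Its difference was -2.05 ± 0.42 (adjusted p = 0.0232 with limma), with the Ala levels in or below the range of the negative controls. The call was lost without Ala replicate 2 (-1.63, adjusted p = 0.215) and without Thr replicate 6, 7 or 8 (-1.69, -2.09 and -1.96, adjusted p = 0.315, 0.0515 and 0.129), and without Ala replicates 1 and 2 together (-1.58, adjusted p = 0.361). Of 9 genes of glycine receptors and transport, Glra3 and Glra1 included, 8 had negative differences in the amygdala, Glra2 at -0.85 ± 0.35 among them (adjusted p = 0.827), with a median of -0.45 against 0.01 for all genes. The mean level of these 9 genes ran from 8.51 to 9.16 in Ala and from 9.31 to 9.74 in Thr arrays without overlap. That mean holds Glra1 and Glra3 and is not separate from their differences, and its lowest array was Ala replicate 2. Single genes lacked overlap in the amygdala in 3.19% of all cases, and no such share was worked out for list means. Nr2f1 differed by -0.15 ± 0.24 and Ly6h by -0.22 ± 0.37 in the amygdala, neither past the threshold. Over the 66 genes the differences in the amygdala were positive for 32 and negative for 34.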

How the data were processed

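Total RNA extracted with Trizol was labelled as biotinylated cDNA and hybridised to Affymetrix arrays, per the labels' protocols. The authors deposited log2 signals, and RMA is the tool named for them, per the submitters' processing notes, without a version. RMA signals in general are background-corrected and quantile-scaled summaries of probe sets, which compresses differences at dim levels. The platform annotation gave 1 symbol to 19572 of 28846 rows, and the row with the highest mean was kept for each of 19505 genes. Genes above log2 4.60, the 30th percentile of all values, on at least 4 arrays were tested. The fit was limma 3.58.1 in R 4.3.3, with 1 mean for each of 10 groups, eBayes with a trend and Benjamini-Hochberg adjustment over all genes tested. Each contrast is Ala minus Thr, so a positive value is higher in Ala. No array was identical to another. Precision is set by 4 arrays a group. In the main fit the SE of a gene is pooled over all 10 groups and is the same in each region. Members, gene lists and promoter letters were chosen with earlier results of these data known. Named genes were the 8 members, the 2 genes most like each by Pearson r, members of the same families, and up to 4 genes past the threshold from a related list. Grp, Avp, Cartpt, Lhx2, Ecel1, Otp, Ucn3 and Gabre were named after their values were seen. The steps were tested on simulated data. Alternatives covered scaling, the filter, the row kept, the spread estimate, array weights, the samples in the fit and leaving out arrays.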

Additional observations from a re-analysis of the deposited data

Results flagged for a closer look

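Of 80 groups of 4 arrays, 1 for each member, region and genotype, 4 held an array far from the other 3 by Dixon's test. Chance flags about 1 in 20 groups. Lypd1 was at 8.85 in Ala cerebellum replicate 12, with the other 3 arrays between 7.93 and 8.07. Lmo3 was at 15.94 in Thr striatum replicate 37, with the others between 16.49 and 16.56. Cyp26b1 was at 4.52 in Thr striatum replicate 38, with the others between 5.05 and 5.13, all of them below the negative controls. AW551984 was at 7.26 in Thr prefrontal cortex replicate 29, with the others between 6.62 and 6.73. The low Nr2f2 value of Ala amygdala replicate 1 was not among them.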

How the results depend on the processing

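Over the alternatives the count of members past the threshold was 0 in each contrast, except that it was 0 to 1 in the amygdala when arrays were left out 1 at a time. Leaving out Thr replicate 7 called Cyp26b1, and leaving out Ala replicate 3 or Thr replicate 5 called AW551984. Ranges of log2 Ala minus Thr over the left-out arrays were, in the amygdala, -1.24 to -0.86 for Cyp26b1 and -2.18 to -1.29 for AW551984. Differences in the cerebellum that changed sign ran from -0.12 to 0.25 for Lypd1, -0.30 to 0.16 for Slc30a3, -0.18 to 0.84 for Lmo3, -0.33 to 0.34 for AW551984. Differences in the hippocampus that changed sign ran from -0.23 to 0.21 for Nr2f2, -0.0609 to 0.23 for Slc30a3, -0.51 to 0.39 for Rspo2, -0.0094 to 0.26 for Cyp26b1, -0.37 to 0.087 for AW551984. Differences in the prefrontal cortex that changed sign ran from -0.57 to 0.22 for Nr2f2, -0.20 to 0.28 for Slc30a3, -0.22 to 0.058 for Cyp26b1. Differences in the striatum that changed sign ran from -0.0581 to 0.20 for Lypd1, -0.95 to 0.23 for Slc30a3. The average over regions ran from -0.17 to 0.0628 for Lmo3 and also changed sign. Without Ala amygdala replicates 1 and 2 together, the difference of Slc30a3 was 0.38 in the amygdala and 0.0409 on average, and the average of Lmo3 was 0.10, each with the opposite sign. With array weights Rspo2 and AW551984 were at 0.13 and 0.0362 in the hippocampus, also with the sign changed. Set against the other forebrain regions alone, without the cerebellum, the amygdala was higher by 3.87 for Lypd1, 2.81 for Slc30a3 and 0.67 for Lmo3. Median centring, quantile normalization, the filter, averaging rows and the spread estimate changed no sign and no call of a member, though Cyp26b1 had no value under the stricter filter, which removed it. With the amygdala fitted alone the adjusted p was 0.521 for Cyp26b1 and 0.724 for AW551984, with differences unchanged at -1.03 and -1.81. No paired analysis was possible because no replicate number of the labels recurs in a second group. With the amygdala fitted alone the differences of Glra1 and Avp were unchanged, at -2.05 and -1.54, but neither passed (adjusted p = 0.416 and 0.521), in alternatives chosen after seeing the data. Levels near the negative controls limit what can be said of Cyp26b1 and Glra1. The cause of these changes was not tested.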
